A study of Mus musculus with 84 samples.

Results

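Circadian clock genes were followed in liver and inguinal adipose tissue of diabetic mice given rosiglitazone or a second compound. The 10 genes, Arntl, Clock, Npas2, Per1, Per2, Per3, Cry1, Nr1d1, Nr1d2 and Dbp, were chosen by name from the gene names of the array, which carried 17 probes for them among 41174. Liver and inguinal adipose tissue (IAT) came from male db/db mice (strain BKS Cg-m+/+ Leprdb/J, which lack a working leptin receptor and are obese and diabetic), which were 8 weeks old on arrival. For 18 days they received by mouth either rosiglitazone (RSG), a PPARγ agonist of the thiazolidinedione class, or a compound given only as S, at 28, 84 or 280 µmol/kg, with 6 mice in each of the 12 groups of tissue, compound and dose. Each mouse was hybridised against the pooled RNA of 6 db/db mice given vehicle, on 2 arrays with the dyes exchanged, so that treated mice and controls carried the same Lepr mutation and no lean mouse entered a ratio. All values below are log2 ratios of a treated mouse over the pool of its tissue, the mean of both arrays, unless another scale is named. A gene was called when its Benjamini-Hochberg adjusted p from limma was under 0.05 over all probes tested in the tissue, 25256 in liver and 30796 in IAT. Where a gene had several probes, the brightest in that tissue stood for it.

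The mammalian clock is a feedback loop of transcription. ARNTL (also called BMAL1) pairs with CLOCK, or with its relative NPAS2, and activates genes that carry E-box motifs, among them the Per and Cry genes, whose proteins return to the nucleus and inhibit the pair. Nr1d1 and Nr1d2 encode REV-ERB nuclear receptors, which repress Arntl through ROR elements, and Dbp encodes an output factor that activates genes through D-box motifs. In liver and adipose tissue these transcripts rise and fall every day, with Arntl in nearly opposite phase to Dbp, Nr1d1 and the Per genes, and feeding sets the phase in liver. No hour of tissue collection is given in the sources used here, for the treated mice or for the mice of the pool, so that an effect of a compound on these genes and a difference in the hour of collection cannot be told apart.

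The motifs by which clock proteins recognise their targets can be seen in the reference promoters of several members. RefSeq promoters (build GRCm38.p6, from 250 bases before to 50 bases after a start site) were found for 9 of the 10 genes, with 13 promoters among them, and Per2 had no entry. On either strand, the E-box CACGTG was found in 7.15% of all 32851 promoters (8.09% of genes). It was in that of Cry1, 60 bases before the start, and in a promoter of Per1, 166 bases before it. The other Per1 promoter held none. The D-box TTATGTAA, held by 0.938% of promoters (1.11% of genes), occurred 2 times in that of Per3, 205 and 158 bases before the start. TAGGTCA, a core of the REV-ERB and ROR element, was in 2.61% of promoters (2.97% of genes). It was in a promoter of Arntl, beginning at base 31 after the start, and not in the other Arntl promoter. A PPAR response element (a direct repeat of AGGTCA with a spacer base) was in 0.0396% of promoters (0.0481% of genes) and in none of the 9 genes. TAGGTCA contains AGGTCA, the repeat unit of the PPAR element, so matches of these could overlap, and the other motifs share no such core. The stretches upstream of Per1 (chr11:69098699-69098948, plus strand), Cry1 (chr10:85185055-85185304, minus strand) and Per3 (chr4:151044666-151044915, minus strand) follow 5′ to 3′, with a short piece of Arntl (chr7:113207531-113207557, plus strand), since these genes hold the motifs; capitals mark the match.
Per1: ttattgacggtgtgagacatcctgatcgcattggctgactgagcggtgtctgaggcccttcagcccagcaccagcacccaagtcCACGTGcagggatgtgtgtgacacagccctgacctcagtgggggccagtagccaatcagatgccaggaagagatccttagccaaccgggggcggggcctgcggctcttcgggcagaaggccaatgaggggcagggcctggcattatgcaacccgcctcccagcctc
Cry1: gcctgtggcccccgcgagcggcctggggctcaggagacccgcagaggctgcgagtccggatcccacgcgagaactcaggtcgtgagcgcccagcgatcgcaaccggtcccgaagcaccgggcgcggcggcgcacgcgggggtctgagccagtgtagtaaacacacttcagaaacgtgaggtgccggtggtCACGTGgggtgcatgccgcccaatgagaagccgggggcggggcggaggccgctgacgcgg
Per3: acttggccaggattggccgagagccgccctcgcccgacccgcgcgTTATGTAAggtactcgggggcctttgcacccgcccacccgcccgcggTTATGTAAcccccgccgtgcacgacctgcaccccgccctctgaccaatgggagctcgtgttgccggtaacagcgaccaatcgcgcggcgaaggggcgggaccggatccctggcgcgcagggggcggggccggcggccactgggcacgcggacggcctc
Arntl: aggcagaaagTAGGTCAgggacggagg
A match is a description of sequence and was not measured as a bound site.

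The control against which every value is set is 1 sample. All 6 comparisons of a tissue share its pool, and a test of the ratio against 0 leaves out the spread between control mice. Defining markers were in place: all 9 hepatocyte markers in liver, Alb, Hnf4a and Cps1 among them, were above background on 100% of arrays, as were Adipoq, Plin1 and Lep in IAT, while Lep was above background on 0% of liver arrays. The lists were not confined to their tissue. In liver 9 adipocyte markers were bright enough for a test, and in IAT 8 hepatocyte markers were, with medians from -2.17 to 1.96 over the samples. Markers of other cell types also stood away from the pool. With 1 pool in each tissue, a change with treatment and the make-up of the pool cannot be told apart here. Markers of skeletal muscle, all 10 of which were detected in IAT, had a median below the pool in 31 of 36 IAT samples (from -4.62 to 0.55), the median of 9 epithelial markers was below it in 34 of 36 (from -4.08 to 0.36), and that of 9 macrophage markers in 28 of 36 (from -1.01 to 0.16). In liver, the median of 9 hepatocyte markers was below the pool in all 36 mice (from -0.69 to -0.10), that of 9 adipocyte markers was above it in all 36 (from 0.07 to 0.90), and that of 7 muscle markers was below it in 35 of 36. The part of these shifts in the values of the clock genes was not tested, and in whole tissue fewer cells of a type and less RNA per cell cannot be told apart. Arrays were scanned on 6 days in each tissue, several of which held mice of more than 1 group, and mice of IAT S 280 µmol/kg were scanned on days of their own. The 12 technical repeats of liver RNA, 6 labelled RSG 28 µmol/kg and 6 labelled S 28 µmol/kg, entered no test, because the labels do not tie them to a mouse. Over all tested probes their mean correlated with the mice of the group at r of 0.49 to 0.83, below the lowest value between the repeats themselves (0.86).

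Against the pool, most clock genes lay lower in both tissues, with Clock and, in IAT, Cry1 on the other side. The median over 36 mice was also above the pool for Arntl in liver (0.16) and IAT (0.08), Nr1d1 in liver (0.27) and Npas2 in IAT (0.15). In liver, where 9 members were tested and Npas2 was too dim, RSG at 28 µmol/kg gave 2 members higher and 6 lower, beside 25.5% and 33.8% of all tested probes. S at 28 µmol/kg gave 3 higher and 5 lower, beside 23.7% and 28.5%. At 84 µmol/kg RSG gave 0 higher and 5 lower (background 24.6% and 33.1%), and S gave 0 and 5 (24.5% and 30.8%), with 0 and 1 higher at an unadjusted p under 0.05. At 280 µmol/kg RSG gave 0 higher, also at an unadjusted p under 0.05, and 5 lower (22.1% and 29.8%), and S gave 1 and 6 (28.8% and 38.1%). The share of members called lower, 5 or 6 of 9, was above the background share in every liver group, and that called higher was below it in the 84 and 280 µmol/kg groups. In IAT all 10 members were tested. RSG gave 2 higher and 5 lower at 28 µmol/kg (27.6% and 19.3%), 2 and 6 at 84 µmol/kg (38.5% and 27.1%), and 2 and 6 at 280 µmol/kg (37.1% and 29.8%). S gave 3 and 6 at 28 µmol/kg (28.5% and 19.1%), 2 and 6 at 84 µmol/kg (33.4% and 22.3%), and 3 and 6 at 280 µmol/kg (42.7% and 32%). Only the share called lower stood above the background in IAT, with 5 or 6 of 10, while that called higher was near or below it. Across all groups and contrasts that allowed it, 48 of 84 calls of a member held with scan day as a block, 35 lost significance and 1 changed sign. A mean fitted with this block depends also on other groups scanned on the same days, and it can lie outside the values of its own mice. Contrasts between tissues are among the 84, although no scan day held both tissues. The calls went from 8 to 0 in liver S 28 µmol/kg, whose 6 mice shared 1 day with mice of 1 other group, from 5 to 1 in liver S 84, from 5 to 2 in liver RSG 280, from 7 to 2 in IAT RSG 28, and from 8 to 5 in IAT RSG 84 and in IAT S 84. Without replicate 1 or without replicate 6 of IAT RSG 28 its 7 calls became 4, and without replicate 3 or replicate 5 of liver RSG 280 its 5 calls became 3.

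**Figure D1:**
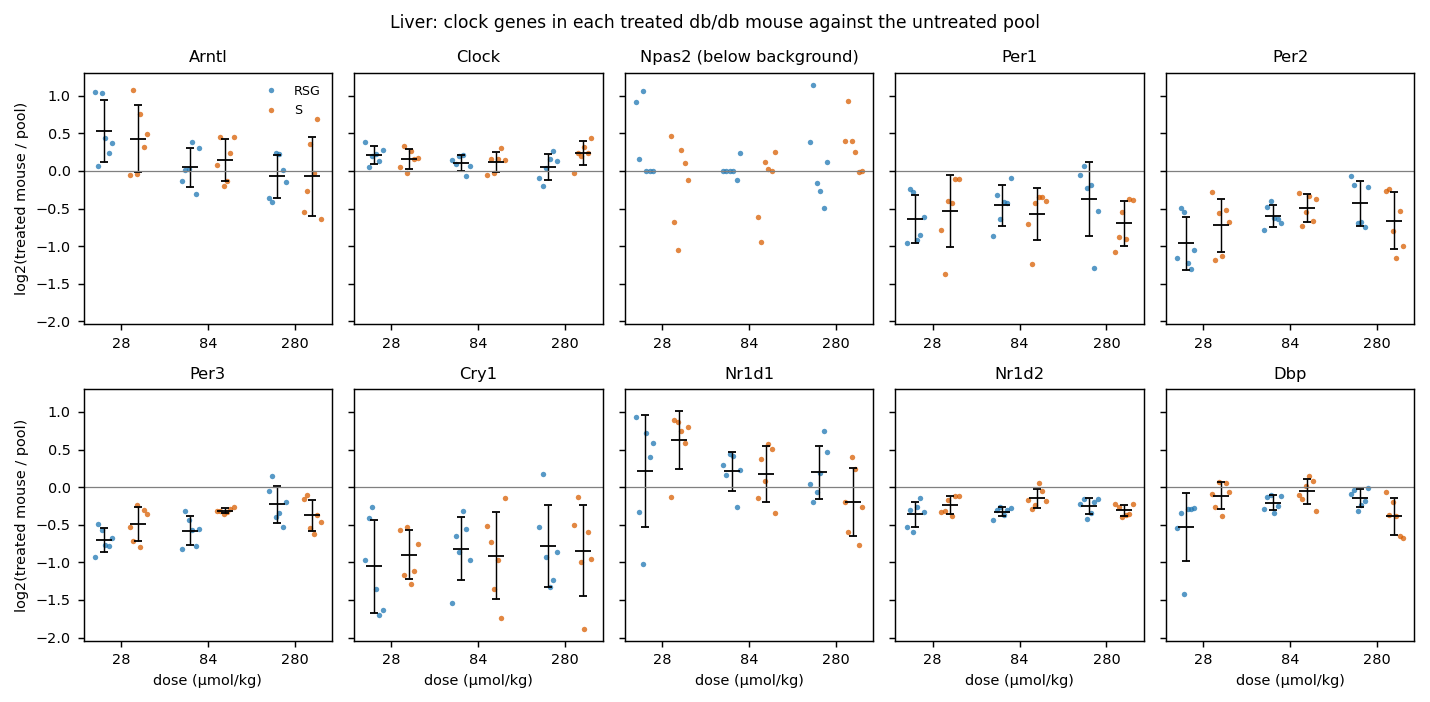
Log2 ratio over the liver pool (vertical axis) of each clock gene in each of the 6 mice of the 6 liver groups (horizontal axis), with bars at the group mean ± SD. All points of Per2 lie below 0, from -1.30 to -0.07, while Arntl and Nr1d1 have mice on both sides of 0.

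Arntl, the activator of the loop, stood higher than the liver pool at the lowest dose of either compound. Its 6 livers of RSG 28 µmol/kg ran from 0.06 to 1.05 with a median of 0.40, and those of S 28 µmol/kg from -0.05 to 1.08 with a median of 0.40. All 6 of the former and 4 of the latter were above the pool, and the groups overlapped widely. Arntl was higher by 0.53 ± 0.15 (SE, n = 6, adjusted p = 0.0030) with RSG and by 0.43 ± 0.15 (SE, n = 6, adjusted p = 0.018) with S. With scan day as a block both calls were lost (0.45 with adjusted p = 0.0697, and 0.45 with adjusted p = 0.416), and that of S was lost also without replicate 2 (adjusted p = 0.125) or replicate 4 (adjusted p = 0.0743) of liver S 28. At 84 and 280 µmol/kg the group means lay between -0.07 and 0.15 and none was called, with livers from -0.64 in S 280 to 0.70 in the same group. In IAT, Arntl ran from -0.61 to 0.42 with a median of 0.08 over 36 mice. It was called in 1 group, S 28 µmol/kg, whose 6 mice lay from 0.08 to 0.37, all above the pool (0.26 ± 0.09, SE, n = 6, adjusted p = 0.015), and that call was lost without replicate 2 of the group (adjusted p = 0.0517), as it was with scan day as a block (0.10, adjusted p = 0.492).

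Clock, which encodes the partner of ARNTL, was slightly higher than the pool in IAT. Its lowest IAT value was -0.22, its median 0.27 and its highest 0.54, and 34 of 36 mice were above the pool. Group means were higher than the pool in all 6 IAT groups, from 0.12 ± 0.05 (SE, n = 6, adjusted p = 0.048) in RSG 28 to 0.41 ± 0.05 (SE, n = 6, adjusted p = 7.14e-09) in S 280 µmol/kg. The mean of IAT RSG 28 held the weakest of these calls, which did not hold when scan day was blocked (adjusted p = 0.287), nor without replicate 1, 2, 4 or 6 of that group (adjusted p of 0.101 to 0.171). In liver 29 of 36 mice were above the pool, from -0.20 to 0.44, and Clock was called higher in RSG 28 (0.21 ± 0.06), S 28 (0.16 ± 0.06) and S 280 µmol/kg (0.23 ± 0.06, each SE with n = 6), of which S 28 was lost without its replicate 2 (adjusted p = 0.0887) or 4 (adjusted p = 0.0636). Blocking scan day ended the calls of liver RSG 28 and S 28 (adjusted p = 0.154 and 0.0967) and that of IAT S 84 (adjusted p = 0.108), all still above the pool. Its 4 probes did not all give the same answer. Probe A_52_P334677 was higher in 4 liver groups and in all 6 IAT groups (0.24 to 0.60), and A_52_P161365 was higher in all 6 IAT groups (0.26 to 0.43) but too dim for a test in liver. The fourth, A_52_P279391, had group means from -0.18 to -0.03 in IAT, lower than the pool in 3 groups, and was lower in 1 liver group. Npas2, the relative that can replace CLOCK, gave a signal well above background in 3 of 72 liver arrays for the treated mice and in 0 of 72 for the pool, so that no fold is given there. In IAT, where it was above background on 37 and 39 of 72 arrays, it ran from -0.54 to 0.62 and was called in S 280 µmol/kg, whose 6 mice lay from 0.19 to 0.62, all above the pool (0.37 ± 0.10, SE, n = 6, adjusted p = 0.0023).

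Per2, a repressor of the loop, was the member that lay below the pool in every mouse of both tissues. In liver it ran from -1.30 to -0.07 with a median of -0.63, and in IAT from -1.17 to -0.45 with a median of -0.87. No treated mouse reached the pool, although the ranges of the 6 groups of a tissue overlapped each other. In liver the largest decrease was in RSG 28 µmol/kg, whose mice ran from -1.30 to -0.50 (mean -0.96 ± 0.12, SE, n = 6, 51.4% of the pool, adjusted p = 2.93e-08). The smallest was in RSG 280, whose mice ran from -0.74 to -0.07 (mean -0.43 ± 0.12, SE, n = 6, 74.1% of the pool, adjusted p = 0.0030). With scan day as a block the calls of liver S 28, S 84 and RSG 280 µmol/kg were lost (their adjusted p being 0.101, 0.0584 and 0.122), with means of -0.67, -0.45 and -0.34. All 6 IAT groups lay between -0.70 ± 0.08 in RSG 28 and -0.92 ± 0.08 in RSG 280 µmol/kg (SE, n = 6), and none of the 5 calls that allowed scan day as a block was lost with it. The brighter Per2 probe lies at chr1:93246875-93246934 (mm8, minus strand), and a dimmer one, A_52_P536869, at chr1:93270367-93270426, nearer to the 5′ end of the gene. The dimmer probe went another way in IAT. Its group means were from -0.20 to -0.03 in liver, lower in 4 groups, and from 0.04 to 0.31 in IAT, higher in 4 groups.

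Per1, which responds quickly to glucocorticoids and feeding as well as to the clock, was below the pool in 35 of 36 livers and in 35 of 36 IAT samples. The liver values ran from -1.37 to 0.07 with a median of -0.42, and those of IAT from -1.32 to 0.09 with a median of -0.41. Group means were lower than the pool in all 12 groups, from -0.37 ± 0.15 (adjusted p = 0.038) in RSG 280 to -0.69 ± 0.15 (adjusted p = 1.39e-04) in S 280 µmol/kg in liver, and from -0.37 to -0.54 (each ± 0.13) in IAT (SE, n = 6). The call of liver RSG 280 was lost without its replicate 3, 5 or 6 (adjusted p of 0.0503 to 0.305, the mean being -0.19 without replicate 5), that of liver RSG 84 without its replicate 1 (adjusted p = 0.0523), and that of IAT S 28 without its replicate 1 or 2 (adjusted p = 0.0551 and 0.0876). When scan day was blocked the means of liver S 84, IAT RSG 28 and IAT RSG 84 became -0.14, -0.08 and -0.26, and their calls were lost (adjusted p = 0.619, 0.795 and 0.155). Liver S 28 µmol/kg changed sign with scan day as a block, from -0.53 ± 0.15 to 0.30 (adjusted p = 0.521), while all 6 of its mice were scanned on the same day and lay from -1.37 to -0.11. The fitted 0.30 thus lies above every mouse of the group and depends on mice of other groups. Per3, a paralogue that is not needed for the rhythm itself, was below the pool in 35 of 36 livers and 33 of 36 IAT samples. The 6 livers of RSG 28 µmol/kg ran from -0.93 to -0.49 (mean -0.70 ± 0.08, SE, n = 6, adjusted p = 2.50e-09), and those of RSG 280 from -0.53 to 0.15 (mean -0.23 ± 0.08, SE, n = 6, adjusted p = 0.013). These ranges touch only between -0.53 and -0.49, and the call of RSG 280 was lost without its replicate 3 or 5 (adjusted p = 0.0582 and 0.0858). In IAT, Per3 was lower in 5 groups and not called in RSG 28 µmol/kg (-0.20 ± 0.10, adjusted p = 0.0967), where 2 mice lay at 0.27 and 0.35 and the other 4 between -0.67 and -0.24. The lowest IAT mean was that of S 280 µmol/kg (-0.68 ± 0.10, SE, n = 6, adjusted p = 4.06e-07), with mice from -0.99 to -0.43. The calls of IAT S 28 (without replicate 2 or 4) and IAT S 84 (without replicate 1 or 2) were lost at adjusted p of 0.0563 to 0.0742. No IAT call of Per3 held when scan day was blocked: RSG 84, RSG 280, S 28 and S 84 had adjusted p of 0.0685, 0.101, 0.249 and 0.230, and S 280 could not be fitted. In liver the calls of RSG 280, S 28 and S 84 were lost likewise (adjusted p = 0.101, 0.102 and 0.0913), and every mean stayed below the pool.

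**Figure D2:**
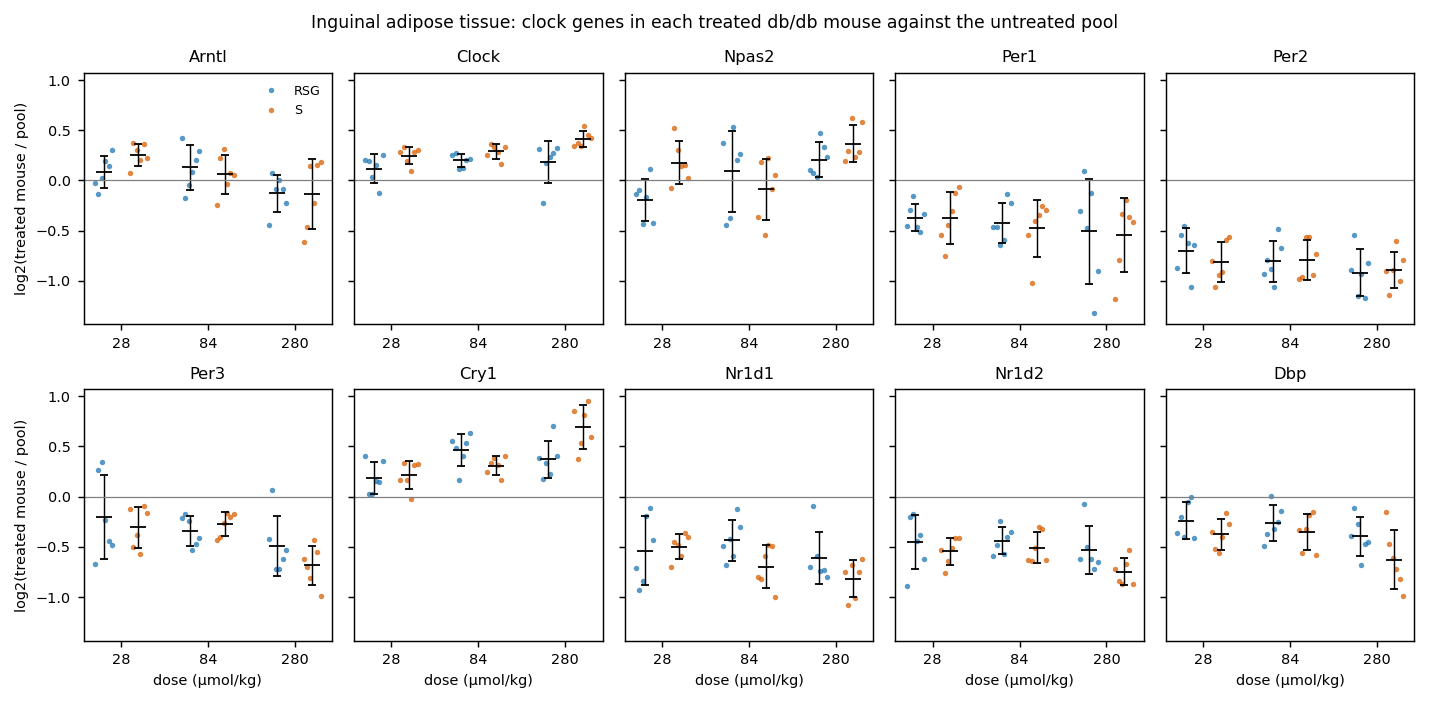
Log2 ratio over the IAT pool (vertical axis) of each clock gene in each of the 6 mice of the 6 IAT groups (horizontal axis), with bars at the group mean ± SD. Per2, Nr1d1 and Nr1d2 lie below 0 in all 36 mice, and Cry1 lies above 0 in 35 of them.

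Cry1, a cryptochrome and a strong inhibitor of the ARNTL and CLOCK pair, stood on opposite sides of the pool in the 2 tissues. In liver it ran from -1.89 to 0.17 with a median of -0.89, below the pool in 35 of 36 mice. In IAT it ran from -0.02 to 0.95 with a median of 0.34, above the pool in 35 of 36. All 6 liver groups were lower, with means from -1.05 ± 0.21 in RSG 28 (adjusted p = 5.78e-05) to -0.78 ± 0.21 in RSG 280 µmol/kg (adjusted p = 0.0021). All 6 IAT groups were higher, from 0.19 ± 0.07 in RSG 28 (adjusted p = 0.022) to 0.69 ± 0.07 in S 280 µmol/kg (adjusted p = 8.12e-11, 161% of the pool; SE, n = 6 throughout). The liver level was low: treated mice gave a signal well above background on 34 of 72 arrays, and the pool did on all 72. The second Cry1 probe, A_52_P420500 (chr10:84561785-84561844, mm8, against chr10:84573549-84573608 for the first), gave liver means from -1.27 to -1.03 and IAT means from 0.19 to 0.90, on the same sides of the pool. With scan day as a block the calls of liver RSG 280, S 28, S 84 and S 280 and of IAT S 28 and S 84 µmol/kg were lost, each on the same side of the pool, and that of IAT RSG 28 was lost without its replicate 1 or 6 (adjusted p = 0.117 and 0.0908).

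Nr1d1 and Nr1d2, the REV-ERB receptors that repress Arntl, were below the pool in all 36 IAT samples. Nr1d1 ran from -1.08 to -0.10 there with a median of -0.61, and Nr1d2 from -0.89 to -0.07 with a median of -0.55. Nr1d1 means lay between -0.44 ± 0.09 (RSG 84) and -0.82 ± 0.09 (S 280), and those of Nr1d2 between -0.44 ± 0.08 (RSG 84) and -0.75 ± 0.08 (S 280, SE, n = 6), and all 12 were lower than the pool. The receptors parted in liver. Nr1d2 was below the pool in 35 of 36 livers and lower in all 6 groups, from -0.15 ± 0.05 (S 84, adjusted p = 0.0095) to -0.36 ± 0.05 (RSG 28, SE, n = 6, adjusted p = 8.13e-08), and the call of S 84 was lost without its replicate 2 (adjusted p = 0.0555). Nr1d1 had 24 livers above and 12 below the pool, from -1.02 to 0.93, and was called in S 28 µmol/kg alone, whose mice lay at -0.14 and from 0.59 to 0.90 (0.63 ± 0.18, SE, n = 6, adjusted p = 0.0040). That call was lost with scan day as a block (0.41, adjusted p = 0.517). The same block ended the calls of Nr1d2 in liver S 28 (-0.19, adjusted p = 0.210) and of both receptors in IAT RSG 28 (Nr1d1 at -0.29, adjusted p = 0.137, and Nr1d2 at -0.34, adjusted p = 0.0636). Nr1d1 overlaps Thra in the RefSeq annotation, and its 3 probes differ. On mm8 the brightest, A_51_P223776, lies within chr11:98585302-98585804 and the others at chr11:98588108-98588167 (A_52_P130952) and chr11:98588628-98588687 (A_52_P130961), all on the minus strand. A_52_P130952 had means between -0.06 and 0.07 in IAT with no group called, and A_52_P130961 had IAT means from 0.09 to 0.25 and was higher in 5 groups, so that the decrease in IAT rests on the brightest probe.

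Dbp, the output factor, was lower in all 6 IAT groups and in 2 liver groups. Its IAT values ran from -0.98 to 0.01 with a median of -0.37, and 35 of 36 mice were below the pool. The means went from -0.24 ± 0.08 in RSG 28 (adjusted p = 0.016) to -0.63 ± 0.08 in S 280 µmol/kg (SE, n = 6, adjusted p = 2.95e-08), the former lost without its replicate 1, 3 or 6 (adjusted p of 0.0552 to 0.0645). Scan day as a block took the calls of IAT RSG 28 (-0.12, adjusted p = 0.474) and IAT RSG 84 (-0.20, adjusted p = 0.0612). In liver the 6 mice of RSG 28 µmol/kg lay at -1.42, in replicate 3, and from -0.54 to -0.27 in the others. Their mean was -0.52 ± 0.10 (SE, n = 6, adjusted p = 2.05e-05), and -0.35 without replicate 3 (adjusted p = 1.43e-04). S 280 µmol/kg was the other liver group called, with mice from -0.67 to -0.06 and a mean of -0.39 ± 0.10 (SE, n = 6, adjusted p = 6.57e-04). The other 4 liver groups had means from -0.21 to -0.06 and were not called.

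RSG and S were then compared with each other at the same molar dose, where the pool cancels. Over 27 liver pairs of member and dose the difference of RSG minus S ran from -0.41 to 0.39, and 0 of 9 members was called at any dose, beside 0.915%, 1.86% and 28.6% of all probes at 28, 84 and 280 µmol/kg. Over 30 IAT pairs it ran from -0.37 to 0.26, and 0 of 10 members was called, beside 0.00649%, 2.15% and 1.57%. At an unadjusted p under 0.05 there were 4 liver and 5 IAT pairs. Of 25256 liver probes, 3562, 3822 and 9767 had such a p at 28, 84 and 280 µmol/kg. In IAT 1287, 4560 and 6354 of 30796 probes had it. No clock gene thus passed the adjusted threshold at 280 µmol/kg in liver, the dose at which many other probes did. Intervals stayed wide: the 95% limits reached from -0.93 to 0.91 in liver and from -0.67 to 0.53 in IAT, so that these data do not show that the compounds act alike on the clock genes. The lowest adjusted p were those of IAT at 280 µmol/kg. Cry1 ran from 0.17 to 0.70 with RSG and from 0.38 to 0.95 with S, overlapping groups that differed by -0.32 (95% interval -0.51 to -0.13, adjusted p = 0.0705). Clock ran from -0.22 to 0.32 with RSG and from 0.34 to 0.54 with S, groups that did not overlap, with a difference of -0.23 (95% interval -0.37 to -0.09, adjusted p = 0.0766). Without replicate 5 of IAT RSG 280 the count at that dose was 2 members, and 1 without replicate 2 or without replicate 3 of IAT S 280. In liver at 280 µmol/kg it was 1 without replicate 5 of RSG or without replicate 1 of S. The liver differences of largest size were both at 28 µmol/kg, -0.41 for Nr1d1 (95% interval -0.93 to 0.11, adjusted p = 0.484) and -0.41 for Dbp (95% interval -0.69 to -0.13, adjusted p = 0.150), the latter with the mouse at -1.42 among the RSG values. On the 1 liver scan day that held 2 mice of either group at 280 µmol/kg, RSG minus S ran from -0.53 for Per1 to 1.12 for Nr1d1.

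**Figure D3:**
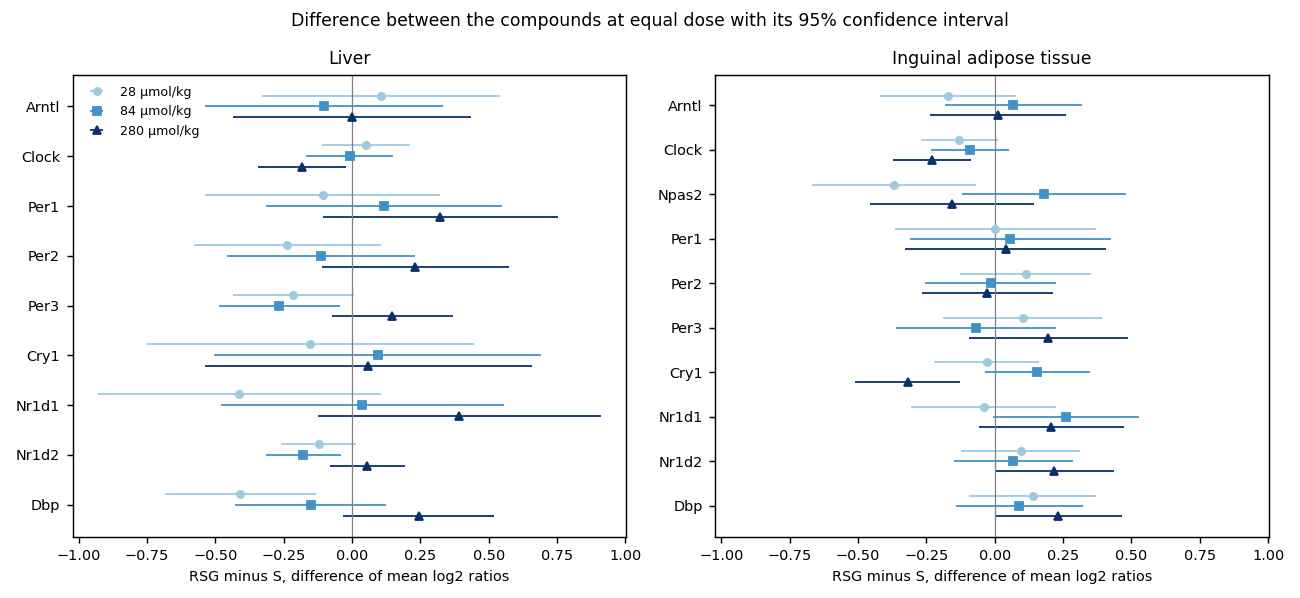
Difference of the group means, RSG minus S, in log2 (horizontal axis) for each clock gene at each dose in liver and IAT, with 95% intervals as bars. The points lie between -0.41 and 0.39, and none passed the adjusted threshold.

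Dose was examined as 280 minus 28 µmol/kg. With RSG in liver 0 of 9 members was called (background 0.0119%), against 4 at an unadjusted p under 0.05, which 3647 of 25256 probes had. The differences ran from -0.60 for Arntl to 0.53 for Per2, and 1 member was called without replicate 5 of RSG 280. With S in liver 1 of 9 was called (29.5%), Nr1d1, whose mice lay from -0.77 to 0.40 at 280 and from -0.14 to 0.90 at 28 µmol/kg, overlapping ranges that differed by -0.82 ± 0.25 (SE, adjusted p = 0.013). That count was 2 without replicate 1 or 3 of S 28 or replicate 3 or 5 of S 280, and 0 with scan day as a block. With RSG in IAT 1 of 10 was called (25.4%), Npas2 (0.40 ± 0.15, SE, adjusted p = 0.044), a dim probe. The count was 3 without replicate 2 of IAT RSG 280 and 0 without any of replicates 2, 3, 4 and 6 of RSG 28 or 4, 5 and 6 of RSG 280. S in IAT gave the most calls, 4 of 10, which was close to the background of 43.5%. Cry1 was higher at 280 µmol/kg, with mice from 0.38 to 0.95 against -0.02 to 0.33 at 28 and no overlap (0.47 ± 0.09, SE, adjusted p = 1.33e-04). Arntl was lower by 0.39 ± 0.12 (adjusted p = 0.0097), Per3 by 0.38 ± 0.14 (adjusted p = 0.031) and Nr1d1 by 0.32 ± 0.13 (adjusted p = 0.048), each with overlapping mice. Per3 was lost in 5 of the fits that left out a mouse (adjusted p up to 0.0830, without replicate 6 of S 280) and Nr1d1 in 9 (up to 0.117, without replicate 2 of S 280). Without replicate 5 or 6 of IAT S 28 the 4 calls became 2. IAT S 280 was scanned on days of its own, so that dose and scan day cannot be told apart in IAT with S. The median of the 10 muscle markers ran from -4.62 to -1.75 in the S 280 mice and from -3.13 to 0.23 in the S 28 mice, that of 9 macrophage markers ran from -0.76 to -0.13 and from -0.33 to 0.16, with 5 of 9 called lower at 280 than at 28 µmol/kg, and 6 of 10 adipocyte markers were called higher and 2 lower. The part of these shifts in the differences was not tested.

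Between tissues the ratios were compared at 280 µmol/kg, each tissue against its own pool, over 24746 probes and 9 members. With RSG 4 of 9 members differed, beside 61.5% of all probes, and with S 5 of 9, beside 73.6%, so that the clock genes were called no more often than other probes. Cry1 differed the most among them. Its IAT values were from 0.17 to 0.70 with RSG against -1.33 to 0.17 in liver (difference 1.15 ± 0.22, SE), and from 0.38 to 0.95 with S against -1.89 to -0.13 (difference 1.53 ± 0.22, SE, adjusted p = 1.10e-08). Only the S ranges were apart. Nr1d1 was lower in IAT than in liver with either compound, by 0.80 ± 0.20 and 0.62 ± 0.20 (SE), and Nr1d2 by 0.28 ± 0.09 and 0.44 ± 0.09 (SE). The RSG value of Nr1d2 had a limma adjusted p = 0.0919 with scan day as a block. No scan day held both tissues, so that this block cannot separate day from tissue. Per2 was lower in IAT with RSG (by 0.49 ± 0.15), and Per3 was lower (by 0.31 ± 0.13) and Clock higher (by 0.18 ± 0.07) in IAT with S. These differences are of the brightest probe, and dimmer probes did not all go the same way. Over 36 mice of all doses, Nr1d1 probe A_52_P130961 had a median of -0.10 in liver and 0.18 in IAT. Nr1d1 probe A_52_P130952 had 0.15 and -0.02, and Per2 probe A_52_P536869 had -0.11 and 0.16. Clock was lost without replicate 1 of liver S 280 or replicate 4 of IAT S 280 (adjusted p = 0.129 and 0.0731), and Per3 without replicate 1 or 2 of liver S 280 or 3 or 6 of IAT S 280 (adjusted p of 0.0546 to 0.0888). The labels do not say whether a liver and an IAT sample of 1 number came from the same mouse, and the fit took them as separate; paired by compound, dose and number, 6 members were called with either compound. Without replicate 2 of IAT RSG 280 the RSG count was 7, and without replicate 1 of liver S 280 the S count was 3.

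Other genes of the loop were read from a list of 13, of which 12 were tested in either tissue. In liver 2 or 3 were higher and 5 to 7 lower in a group, and in IAT 1 to 3 were higher and 4 to 8 lower. All tested probes were called higher at 22.1% to 28.8% and lower at 28.5% to 38.1% in the liver groups, and at 27.6% to 42.7% and 19.1% to 32% in the IAT groups, so that the counts of higher genes were near or below the background. With RSG at 280 µmol/kg in liver, Cry2, the second cryptochrome, was lower (-0.36, SD 0.26), as was Nfil3, which represses D-box genes (-0.58, SD 0.28), while Rora, which activates Arntl, was higher (0.27, SD 0.18; n = 6 each). In IAT at the same dose Cry2 (-0.50, SD 0.11), Timeless (-0.62, SD 0.16) and Ciart, a repressor of the ARNTL and CLOCK pair (-1.05, SD 0.73), were lower and Nfil3 was higher (0.70, SD 0.41). Nfil3 was thus another gene of the loop, with Cry1, on opposite sides of the pool in the 2 tissues. Among 8 output genes, 0 were higher in any liver group, also at an unadjusted p under 0.05, and 6 or 7 were lower, with list medians from -0.79 to -0.41 where the median of all tested probes lay between -0.05 and -0.02. Noct, a rhythmic phosphatase, had the largest of the decreases named with RSG at 280 µmol/kg in liver (-1.44, SD 0.53), beside Usp2, a deubiquitinase (-0.93, SD 0.53), Tef, a relative of Dbp (-0.46, SD 0.23), and Wee1, a cell cycle kinase (-0.43, SD 0.28). Nampt was the gene nearest to a rise, at 0.10 (adjusted p = 0.338). In IAT 1 to 3 of the 8 output genes were higher, near or below the background, and 4 or 5 lower, and at 280 µmol/kg of RSG Noct was higher (1.35, SD 0.65), with Alas1 of haem synthesis (0.62, SD 0.34), while Tef (-0.47, SD 0.31) and Hlf (-0.38, SD 0.28), the other relatives of Dbp, were lower.

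How the members varied together between mice was examined from the deviations of each mouse from its group mean, in which the pool cancels. Of 17 pairs of Arntl with another member, 8 in liver and 9 in IAT, 4 passed the threshold after adjustment over the 17. In liver Arntl went with Clock (r = 0.51, permutation p = 0.0039, adjusted p = 0.018; rho = 0.51, permutation p = 0.0033; n = 36). It went against Nr1d2 (r = -0.57, permutation p = 8.4e-04, adjusted p = 0.014; rho = -0.52, permutation p = 0.0035) and against Dbp (r = -0.51, permutation p = 0.0040, adjusted p = 0.018; rho = -0.49, permutation p = 0.0068). Without the 2 mice farthest in Arntl, r was 0.51, -0.58 and -0.47. Within RSG mice r was 0.65, -0.71 and -0.60, and within S mice 0.41, -0.47 and -0.46. Per2 and Per3 pointed the same way as Dbp without passing (r = -0.36 and -0.37, adjusted p = 0.172 and 0.134). Without replicate 3 of liver RSG 28 the liver count was 5 pairs, with r of -0.45 for Per2 and -0.42 for Per3. The remaining liver pairs were near 0, with r of 0.10 for Nr1d1, -0.11 for Per1 and -0.07 for Cry1, and none passed. In IAT Arntl went with Nr1d1 (r = 0.48, permutation p = 0.0042, adjusted p = 0.018; rho = 0.55, permutation p = 0.0019), with the same sign of deviation in 28 of 36 mice. No IAT pair of opposite sign passed, the nearest being Dbp (r = -0.39, adjusted p = 0.146). Mice of a group often shared a slide, and with deviations taken within slides r was 0.45, -0.53, -0.43 and 0.39 for the 4 pairs, of which none passed after adjustment (permutation p = 0.159, 0.024, 0.058 and 0.128).

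**Figure D4:**
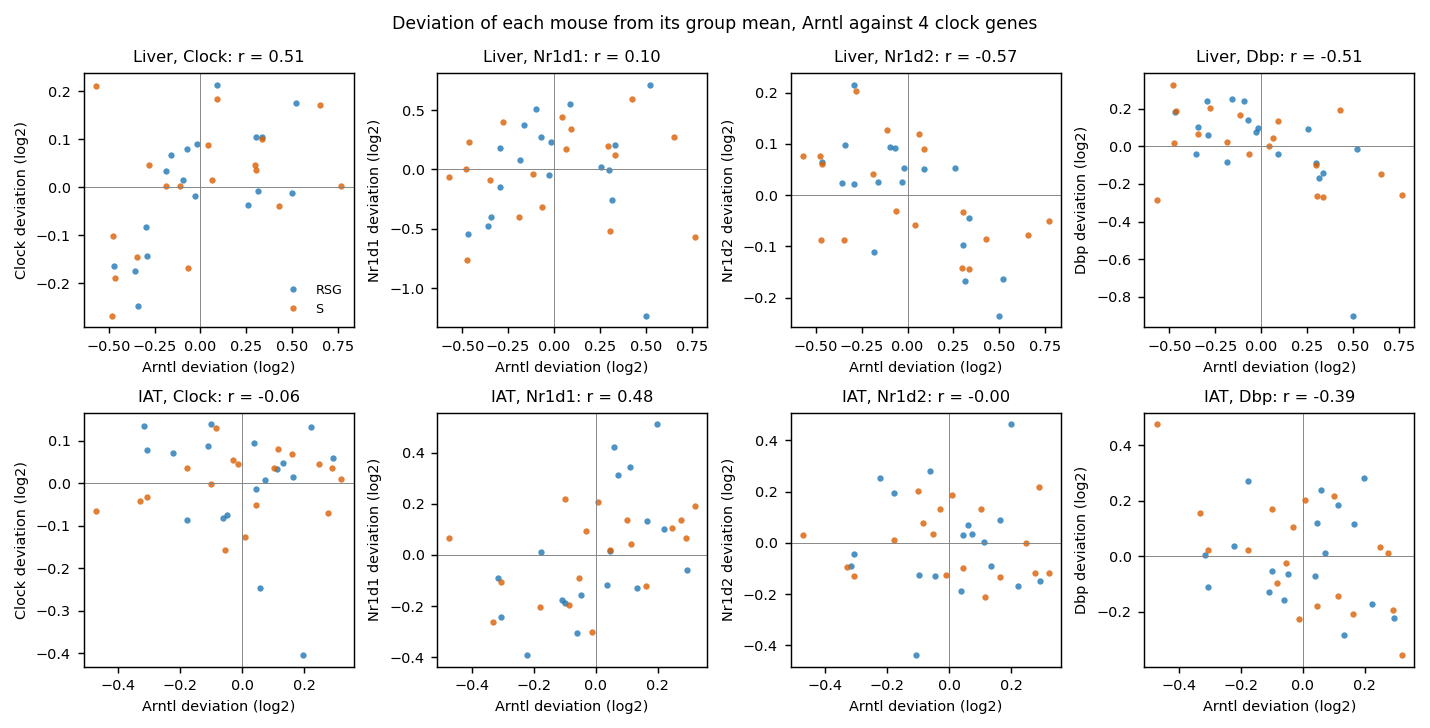
Deviation of each mouse from its group mean in log2, Arntl on the horizontal axis and another clock gene on the vertical axis. Panels show Clock, Nr1d1, Nr1d2 and Dbp in liver and in IAT, with 36 mice in each. Clock rises and Nr1d2 and Dbp fall with Arntl in liver, and Nr1d1 rises with it in IAT.

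Some clock genes were among the more variable transcripts of the liver. The pooled SD between mice of a group was 0.53 for Cry1, 0.46 for Nr1d1, 0.38 for Arntl and Per1, 0.30 for Per2 and 0.24 for Dbp, where the median probe had 0.16. Nr1d1, Arntl and Per1 exceeded 95.4%, 91.5% and 91.3% of tested liver probes. Cry1 exceeded 97.3%, but 76.0% after another background correction (normexp), and it was dim in liver. Nr1d2 (0.11) and Clock (0.14) lay below the median probe, but exceeded 60.3% and 71.6% of probes after normexp. Against the SD of the technical repeats, the spread between mice was 28.0 times as large for Dbp, 8.11 times for Arntl, 7.73 for Per2, 6.69 for Per1 and 5.36 for Nr1d1, so that repeated arrays of the same RNA varied far less than mice. For Nr1d2, Per3 and Cry1 the ratio was 1.34, 1.66 and 1.75. In IAT the SD ran from 0.12 for Clock to 0.32 for Per1, beside a median probe of 0.17.

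**Figure D5:**
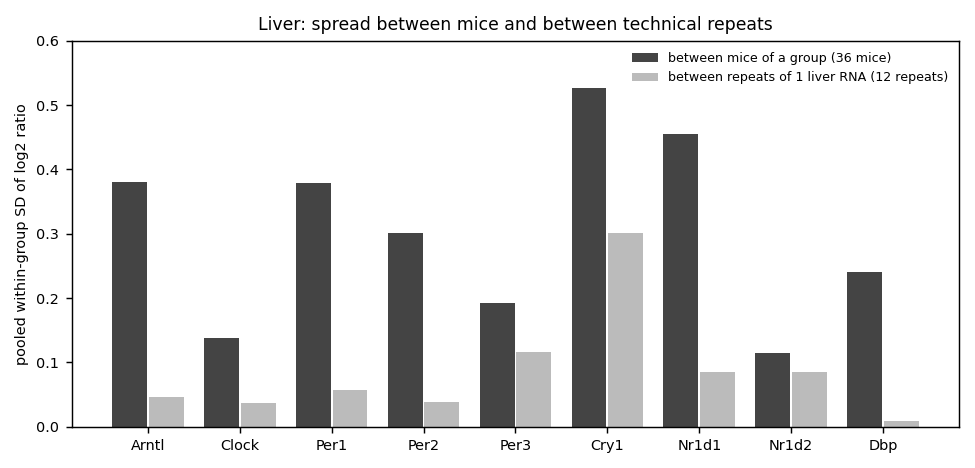
Pooled SD of the log2 ratio (vertical axis) for each clock gene in liver (horizontal axis), with dark bars for the spread between mice of a group over 36 mice and light bars for the spread between technical repeats over 12 repeats. The dark bar exceeds the light one in all 9 genes, by 28.0 times for Dbp and 1.34 times for Nr1d2.

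Transcripts whose deviations were among the most like those of Arntl and Dbp over 36 mice, among all named genes, were not clock genes. In liver these were Leo1 (r = 0.70), Aff4 (0.68) and Celsr1 (0.68) for Arntl, and Tbc1d10a (r = 0.77) and Tert (0.67) for Dbp. In IAT they were Srsf5 (r = 0.80), Abcc4 (0.77) and Zfp472 (0.76) for Arntl, and Prr15 (r = 0.74), Ntsr2 (0.72) and Kansl1l (0.67) for Dbp. The points of both genes share their arrays, and no p is given because these genes were picked from all named genes on the array.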

How the data were processed

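Total RNA of each mouse and of its tissue's pool was labelled with Cy5 or Cy3 and hybridised on Agilent 2-colour arrays, 168 for 84 samples. The authors extracted spot intensity with Agilent Feature Extraction 9.5, and the deposited log10 ratio of red over green was already background-subtracted and Lowess dye-normalised. Here the log10 ratio was turned to treated mouse over pool by the labels' dyes, converted to log2, and averaged over both arrays of a mouse; paired arrays correlated at r of -0.94 to -0.62 before turning. Spots marked as outliers were dropped, and a probe was tested in a tissue if 50% or more of a group's arrays had the treated channel well above background, or 50% or more of the tissue's arrays had the pool channel so. Groups came from the sample labels. R 4.3.3 and limma 3.58.1 fitted the 6 groups of a tissue (both tissues for the contrast between them), with Benjamini-Hochberg adjustment over all probes. The code was tested on simulated data. Mice shared cages, but no cage is given for a sample, and p-values measure the spread between these mice; the number of arrays limits the precision.

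Correlations of members used 100000 permutations within groups (Python 3.11.15, scipy 1.17.1). Alternatives were the normexp correction with loess, the deposited value table of log10 ratios (whose scale and direction were set against the scanner values), no filter on dim probes, the mean of all probes of a gene, either dye alone, slide, scan day or replicate number as a block, each mouse left out, and the methods' own threshold. All members are named; from other lists, the 4 genes of smallest p with RSG at 280 µmol/kg in each tissue and the first against the majority; and the 3 genes most like Arntl and Dbp; some of these are not reported here. Members and lists were chosen with earlier results of these data known. Motifs were read from RefSeq promoters.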

Additional observations from a re-analysis of the deposited data

Results flagged for a closer look

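Of 114 combinations of a member and a group of 6 mice, 5 had a mouse far from the others by the ratio of its gap to the range of the group, where chance gives about 1 in 20. The 3 of these in IAT RSG 280 µmol/kg came from the same mouse, replicate 2, with the lowest Clock (-0.22) and the highest Nr1d1 (-0.096) and Nr1d2 (-0.068). Its muscle marker median (0.55) and epithelial marker median (0.31) were the highest of its group, and their part was not tested. Without it the group means were 0.26 for Clock, -0.71 for Nr1d1 and -0.62 for Nr1d2, and all calls stood. In liver, replicate 3 of RSG 28 µmol/kg had the lowest Dbp (-1.42) and replicate 1 of S 28 µmol/kg the lowest Nr1d1 (-0.14), and the calls stood without them (-0.35 and 0.78).

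Effects against the pool differed between IAT and liver at 280 µmol/kg, by limma's contrast of both tissues, in 9 cases. With RSG the IAT minus liver difference was 1.15 for Cry1, -0.80 for Nr1d1, -0.49 for Per2 and -0.28 for Nr1d2. With S it was 1.53 for Cry1, -0.62 for Nr1d1, -0.44 for Nr1d2, -0.31 for Per3 and 0.18 for Clock. These are values of the brightest probe, and dimmer probes of Nr1d1 and Per2 did not all go the same way, as given above. Each tissue had its own pool, so that a difference between the pools cannot be told apart from one between the treated tissues.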

How the results depend on the processing

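Direction held for all but 2 calls of a member under the settings tried. Per1 in liver S 28 µmol/kg went to 0.30 with scan day as a block, and Per3 in liver S 84 to 0.015 with the treated mouse in Cy3 alone; the cause was not tested. Of 102 calls, 101 stood with the replicate number as a block, 100 with the value table, 99 with slide as a random block, 98 without a filter, 97 with Cy5 alone, 96 with the mean of all probes, 95 with normexp and loess, 84 with Cy3 alone and 53 at the methods' threshold (unadjusted p under 0.001 and at least 1.3-fold). Of 702 fits of a call that left out a mouse, 647 kept it and 55 lost it.

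At the methods' threshold the members called against the pool were 5 (liver RSG 28), 3 (liver S 28), 3 (liver RSG 84), 3 (liver S 84), 2 (liver RSG 280), 4 (liver S 280), 3 (IAT RSG 28), 3 (IAT S 28), 4 (IAT RSG 84) and 4 (IAT S 84). For 280 minus 28 µmol/kg they were 1 (liver RSG), 0 (liver S), 0 (IAT RSG) and 1 (IAT S), and between tissues 2 with either compound. With scan day as a block they were 0 (liver S 28), 1 (liver S 84), 2 (liver RSG 280), 2 (IAT RSG 28), 5 (IAT RSG 84), 5 (IAT S 84) and 0 for 280 minus 28 µmol/kg in liver S and in IAT RSG; for IAT S 280 this block could not be fitted. The count of IAT RSG 280 minus 28 µmol/kg was also 0 with normexp and loess, the value table, no filter, Cy5 alone, Cy3 alone and slide as a block. Cy3 alone gave 3 members in liver RSG 280 and 3 in liver S 84, and Cy5 alone gave 2 for IAT S 280 minus 28. With the mean of all probes the count was 1 for IAT RSG minus S at 280 and 2 between tissues with RSG. The Cy3-alone, Cy5-alone and slide-centred settings, and the correlations without a mouse, were added after seeing the data. No share of all probes is given for any alternative setting, so that counts under these settings are not set against a background.

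Within a tissue, where groups hold different mice, deviations of same-numbered mice correlated at -0.52 to 0.66. Own numbers fitted best for 4 of 6 between liver RSG 28 and S 28 µmol/kg and for 3 of 6 between liver S 280 and 28. In the other comparisons within a tissue 0 to 2 did. The mean r of same-numbered livers was from -0.03 to 0.19 in the 5 liver comparisons. Between IAT and liver of 1 compound and dose they correlated at -0.15 to 0.37, above 0 for every number in all groups but S 280, and own numbers fitted best for 5 of 6 in RSG 28, RSG 280 and S 84, 4 in RSG 84, 3 in S 28 and 2 in S 280. Their mean r was from 0.10 to 0.16, within the range seen between different mice in liver. Whether liver and IAT samples of 1 number share a mouse was not tested, and the labels do not state it. With liver and IAT paired by compound, dose and number as a block, added after seeing the data, all 9 calls between tissues held, and 6 members were called with RSG and 6 with S. With the replicate block the count of IAT RSG minus S at 280 µmol/kg was 1 in place of 0, and no other count moved by over 1.5 times.

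Leaving out a mouse in turn gave counts of 4 to 7 for IAT RSG 28, 3 to 5 for liver RSG 280, 0 to 3 for IAT RSG 280 minus 28, 2 to 4 for IAT S 280 minus 28, 1 to 2 for liver S 280 minus 28, 0 to 1 for liver RSG 280 minus 28, 0 to 2 for IAT RSG minus S and 0 to 1 for liver RSG minus S at 280, and 4 to 7 (RSG) and 3 to 6 (S) between tissues. Pairs correlated with Arntl numbered 0 in liver within S alone and within slides, 5 in liver without replicate 3 of liver RSG 28, and 0 in IAT within RSG alone, within S alone and within slides, where fewer mice or degrees of freedom remain. Cry1 in liver and Npas2 in IAT lie near background, which limits their ratios.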

Other observations

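Genes induced by glucocorticoids, hormones that follow a daily rhythm and act on Per1, were mostly below the pool. Of 8 such genes tested, 5 or 6 were called lower in each liver group and 5 to 8 in each IAT group (all tested probes: 28.5% to 38.1% and 19.1% to 32%), and 0 were higher except 1 in liver S 28 µmol/kg, counts that were 0 and 1 at an unadjusted p under 0.05 as well. The list medians lay from -0.92 to -0.50 in liver and from -0.64 to -0.25 in IAT, where the median of all tested probes lay from -0.05 to -0.02 and from 0.03 to 0.06. With RSG at 280 µmol/kg in liver Mt2, a metallothionein, had -1.70 (SD 1.26), Tsc22d3, which encodes GILZ, -1.17 (SD 0.29), Fkbp5, a chaperone of the glucocorticoid receptor, -0.47 (SD 0.46), and Klf9 -0.44 (SD 0.26), all lower by limma, while Sgk1 had 0.03 (adjusted p = 0.793; n = 6). In IAT at that dose Mt2 (-1.48, SD 0.44), Mt1 (-0.86, SD 0.26), Tsc22d3 (-0.45, SD 0.12) and Dusp1 (-0.35, SD 0.27) were lower.

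The technical repeats labelled S 28 µmol/kg lay outside the 6 mice of that group in several clock genes. Their Arntl values were from -0.48 to -0.40, below all 6 mice (-0.05 to 1.08), their Per2 values from -0.15 to -0.08, above all 6 (-1.18 to -0.27), and their Dbp values from 0.15 to 0.18, above all 6 (-0.39 to 0.07). Repeats labelled RSG 28 µmol/kg had Nr1d1 from 0.95 to 1.23, above the 6 mice (-1.02 to 0.93), and Clock from 0.41 to 0.51, above them (0.05 to 0.39).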
